A study of Mus musculus with 8 samples.

Results

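Developmental transcription factors outside the Hox clusters were examined as a group of 59 genes from the Pax, Sox, Tbx, sine oculis homeobox (Six2 and its relatives), Irx, Nkx, Lhx and Gata families, together with Otx1, Otx2, Gsc and Msx1. The 59 genes were chosen by name and family, out of 51229 annotated autosomal genes. Earlier results of these data were known when they were chosen. DNA methylation was measured by reduced representation bisulfite sequencing (RRBS), in which an enzyme cut selects CpG-rich fragments and bisulfite reveals methylated cytosines as unconverted reads. Tumours grew from NIC-5231 cells, a mouse mammary tumour line driven by the ErbB2 oncogene, in the mammary fat pad of immunodeficient NSG mice aged 5 to 7 weeks, with 5 mice in each group. Mice were injected intraperitoneally every 2 days with vehicle (labelled DMSO), with C29 at 10 mg/kg (an inverse agonist of the nuclear receptor ERRα), with 5-azadC at 1 mg/kg (the DNA methyltransferase inhibitor decitabine), or with both. Each group has 2 libraries, each made from the pooled tumour DNA of 2 mice, so that every difference between replicates also holds the difference between pools. All tumours came from 1 cell line, and the DNA of host cells in the tumour was not separated.

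These factors bind DNA to set up organs, limbs and nerve cell types in the embryo, and most are silent in an adult epithelial cell. Their genes lie in long CpG-rich domains that are kept unmethylated in most normal tissues and are marked by Polycomb complexes when silent. In cultured cells and tumours such domains often gain DNA methylation, and DNMT1 copies methylation to the new strand when the cell divides. 5-azadC is built into replicating DNA and traps that enzyme. No expression was measured in this series, so the values below are methylation only.

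The members held 4116 of the 555155 autosomal CpG cytosines with at least 10 reads in all 8 libraries. A start-site region ran from 2000 bp upstream to 500 bp downstream of the gene's 5′ end, and the gene body was the rest of the gene. Regions needed at least 3 such cytosines, and their level is the mean percent methylation over those cytosines. By that rule 54 of the 59 members had a start-site region, with a median of 17 cytosines, and 58 had a gene body, with a median of 39.5. Lhx3, Lhx4, Lhx9 and Pax8 had no cytosine in the start-site region, Pax3 had 1 there, and Pax8 had 2 in the gene body. In the start-site regions 57.2% of the cytosines lay upstream of the gene, 31.9% in untranslated exons and 6.32% in coding exons. Another annotated gene, often an antisense or long noncoding transcript, overlapped 27 of the 54 start-site regions.

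The libraries held 51359825 to 81299065 reads summed over cytosines, and between 0.216% and 0.329% of an unmethylated spike-in control read as methylated. The mean over all autosomal cytosines was 33.1% to 34.4% in the 4 libraries without 5-azadC and 30.0% to 31.1% in the 4 with it. Among the 7 covered epithelial genes used to check the tissue, the start-site region in vehicle ranged from 0.784% for Esrp1 to 65.5% for Foxa1, with a median of 16.6%. Most blood, stromal and endothelial markers held no covered region. Reads carry no molecular identifiers, so intervals and floors below cover counting error only.

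The following stretches show the range of start-site methylation among the members, from GRCm38 on the strand of the gene. Capitals mark the CpG sites that were measured. Irx2 and Sox21 are shown as the unmethylated type, Lhx1 as the partly methylated type and Nkx6-2 as one of the most methylated. Nkx2-1 holds cytosines of a region called against vehicle.
Irx2 (Iroquois homeobox factor, coding exon, chr13:72629150-72629320, plus strand): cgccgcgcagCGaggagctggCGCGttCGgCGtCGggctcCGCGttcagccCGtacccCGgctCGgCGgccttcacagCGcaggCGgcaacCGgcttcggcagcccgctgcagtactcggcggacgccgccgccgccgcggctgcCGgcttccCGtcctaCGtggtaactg
Sox21 (neural and hair follicle factor, upstream, chr14:118237161-118237329, minus strand): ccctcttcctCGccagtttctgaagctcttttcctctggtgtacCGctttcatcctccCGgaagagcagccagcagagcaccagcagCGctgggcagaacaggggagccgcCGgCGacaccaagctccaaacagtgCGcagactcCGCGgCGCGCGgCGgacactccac
Lhx1 (kidney and head LIM homeobox factor, upstream, chr11:84526043-84526336, minus strand): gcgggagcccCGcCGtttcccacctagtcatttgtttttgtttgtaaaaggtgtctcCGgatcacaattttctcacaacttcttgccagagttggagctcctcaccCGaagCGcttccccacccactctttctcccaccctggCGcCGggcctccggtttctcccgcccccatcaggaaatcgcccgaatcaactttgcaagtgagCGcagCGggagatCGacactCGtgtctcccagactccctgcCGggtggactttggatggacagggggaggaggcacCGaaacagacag
Nkx6-2 (oligodendrocyte and ventral neural tube factor, coding exon, chr7:139582419-139582539, minus strand): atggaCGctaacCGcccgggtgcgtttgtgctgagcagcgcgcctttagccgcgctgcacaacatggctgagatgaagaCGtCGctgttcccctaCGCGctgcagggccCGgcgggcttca
Nkx2-1 (thyroid, lung and forebrain factor, upstream, chr12:56537060-56537116, minus strand): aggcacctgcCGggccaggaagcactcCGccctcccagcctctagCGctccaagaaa
Over the measured sites of these stretches, the vehicle libraries stood at 0% and 1.01% for Irx2, and both stood at 0% for Sox21. They stood at 55.4% and 48.3% for Lhx1, at 81.4% and 77.3% for Nkx6-2 and at 45.8% and 70.1% for Nkx2-1. The stretches of Sox21 and Nkx6-2 both hold 14 CpG sites, in 169 and 121 bases, and stood at opposite ends of this range.

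In vehicle tumours the start-site regions of these factors carried intermediate methylation, unlike the start sites of most genes. The median over the 54 members was 18.6% and 22.0% in the 2 vehicle libraries, against 0.791% and 0.703% over 15339 genes. As the mean of both vehicle libraries, 39 members (72.2%) were at 10% or more, against 31.4% of all genes, and 8 (14.8%) were under 2%, against 57.9%. At 50% or more stood 8 members (14.8%), close to the 15.5% of all genes but above the 7.58% of protein-coding genes. Of protein-coding genes 22.9% were at 10% or more. Over protein-coding genes the median was 0.579%, and over 21 other genes of the same families outside the list it was 10.4%. Of those 21 genes, 11 (52.4%) were at 10% or more. These shares are descriptions, since genes are not replicates.

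**Figure D1:**
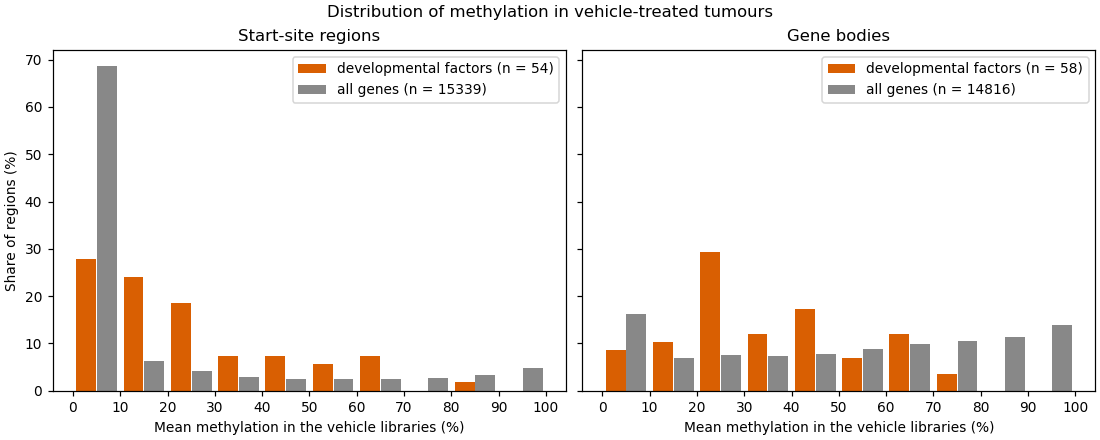
Distribution of the mean methylation in the 2 vehicle libraries (horizontal axis, percent, steps of 10) as the share of regions (vertical axis, percent) for start-site regions and gene bodies. Developmental factors are in orange and all genes in grey; most gene start sites lie under 10%, while 72.2% of the start sites of developmental factors lie at 10% or more.

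CpG density did not set the members apart in the same way. Across the start-site region the ratio of observed to expected CpG had a median of 0.554 in members and 0.521 in all genes. Among regions with a ratio of at least 0.6, 14 of 21 members (66.7%) were at 10% methylation or more in vehicle, against 13.6% of 4909 genes. At this CpG density the median level was 20.1% in members and 0.399% in all genes. By single cytosine, 43.4% of member start-site cytosines were between 10% and 90% in vehicle, against 15.5% of the start-site cytosines of all genes.

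The gene bodies departed from the rest of the genome in the other direction. Their median was 32.0% and 33.9% in the vehicle libraries, against 54.9% and 54.7% over 14816 genes. At 50% or more stood 13 of 58 member bodies (22.4%), against 54.3% of all genes. The body was more methylated than the start-site region in 37 of 54 members (68.5%), against 81.9% of genes with both. The levels of start-site region and body were weakly related across the 54 members (Spearman's rho 0.21, as a description across genes that share the libraries).

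With distance from the gene start, the members formed a shallow profile up to 16 kb. The 4 libraries without 5-azadC averaged 12.8% in the 500 bp before the start and 34.3% between 2 and 4 kb into the gene. Over all genes the same bins were at 7.87% and 37.9%. Between 8 and 16 kb the members were at 31.0%, where all genes were at 55.3%.

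**Figure D2:**
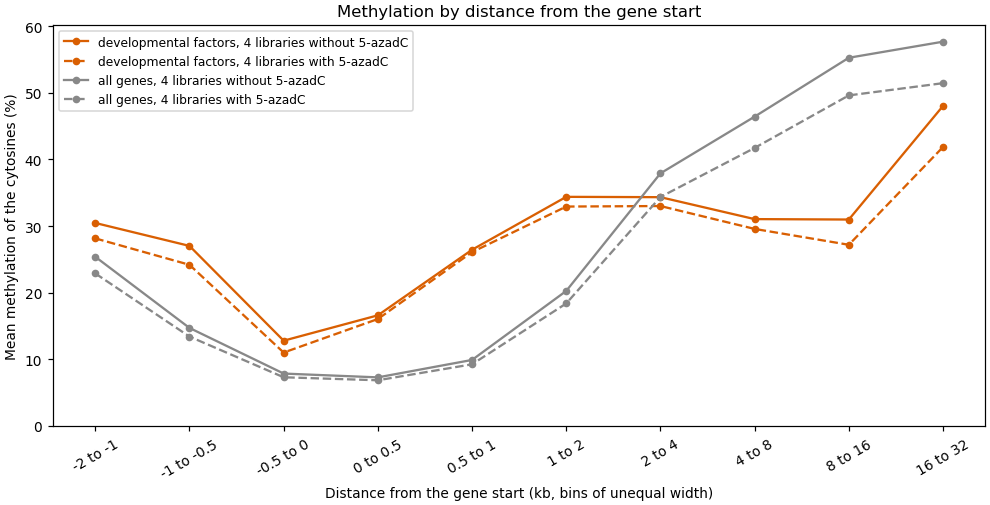
Mean methylation of the cytosines (vertical axis, percent) by distance from the gene start (horizontal axis, kb, bins of unequal width). Orange lines are developmental factors and grey lines all genes; solid lines average the 4 libraries without 5-azadC and dashed lines the 4 with it. The orange lines lie above grey near the start and below it beyond 4 kb.

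The families differed in level. The Irx factors, which pattern the neural tube, heart and limbs, had the lowest start sites, with a median of 4.70% over 6 genes and 3 of them under 2%. The Nkx homeobox factors had the highest, with a median of 36.6% over 6 genes, all at 10% or more. Pax and Tbx start sites had medians of 21.2% and 22.1%, and Sox and Lhx start sites 13.1% and 12.9%. The start sites of Six2, Six3 and Six6 had a median of 20.1%, and the 4 Gata start sites 33.1%. The Irx gene bodies were low as well, with a median of 1.50%, while the Sox and Gata bodies were at 42.9% and 42.4%. Families of 3 to 12 genes are too small for more than this description.

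The least methylated start sites stayed so in every library. Irx1, Irx2, Irx5, Sox8, Sox9, Sox21, Lhx2 and Lhx6 had 5 to 53 cytosines each, and none of their 64 library values exceeded 4.17%. Lhx2, a factor of eye and hair follicle, was at 0% in 7 libraries and at 2.78% in 5-azadC replicate 1. Sox8, a relative of the testis and cartilage factor Sox9, was at 0% in 7 libraries and at 3.28% in the combination's replicate 2. Irx1 was at 0% and 0.0484% in vehicle, and between 0% and 1.07% with the drugs. Lhx6, an interneuron factor, was at 0% and 0.312% in vehicle and reached 4.17% in the combination's replicate 2. Neighbouring cytosines share reads, so the limit for a library at 0% was taken from the best covered cytosine of the region, and it ranged from 2.68% to 27.3%.

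**Figure D3:**
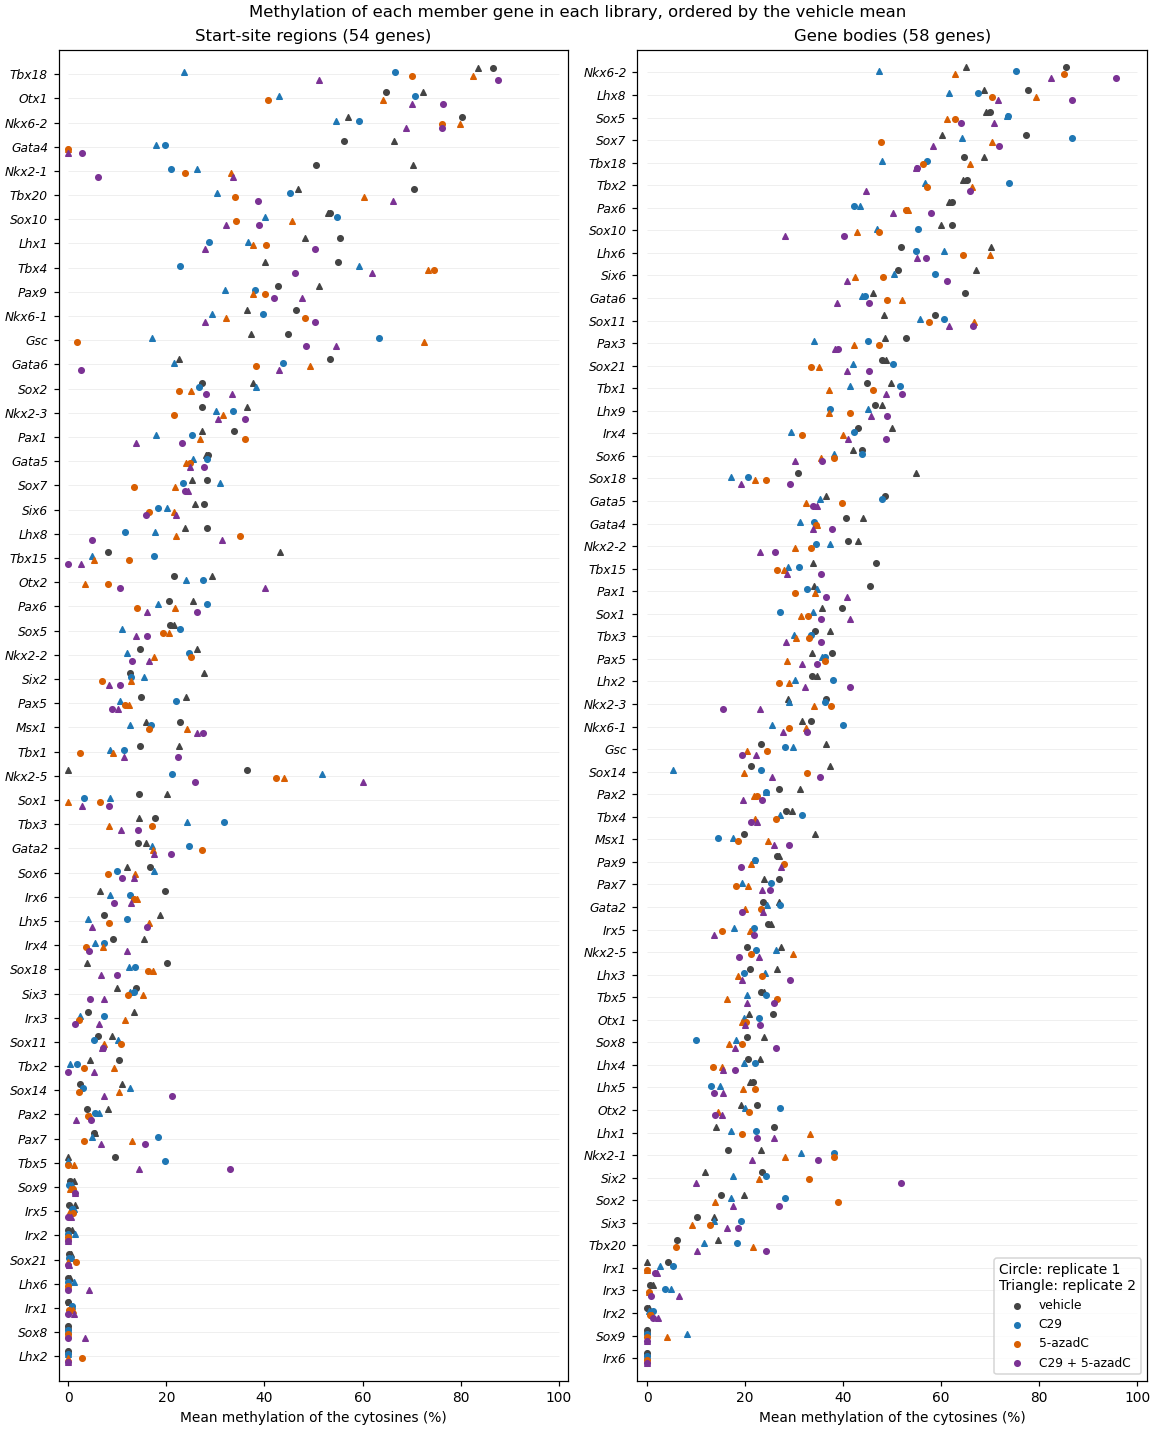
Mean methylation (horizontal axis, percent) of each developmental factor (rows, ordered by the vehicle mean) in each of the 8 libraries, for 54 start-site regions and 58 gene bodies. Colours are the treatment groups, circles replicate 1 and triangles replicate 2. The bottom 8 start sites stay under 5% throughout, while libraries of 1 group are often as far apart as groups.

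The most methylated start site was that of Tbx18, a heart and ureter T-box factor, at 86.7% and 83.7% in vehicle, over 3 cytosines. Otx1, a forebrain factor, had 64.8% and 72.4% in vehicle, 70.7% and 43.0% with C29, 40.6% and 64.1% with 5-azadC, and 76.4% and 70.05% with both. Nkx6-2 had 80.2% and 56.9% in vehicle, 59.3% and 54.5% with C29, 76.1% and 79.8% with 5-azadC, and 76.2% and 68.8% with both. In Otx1 and Nkx6-2 the libraries of each treatment overlapped or nearly touched those of vehicle.
Tbx20, a heart factor, had 70.5% and 46.9% in vehicle, 45.2% and 30.2% with C29, 34.1% and 60.2% with 5-azadC, and 38.7% and 66.2% with both. Lhx1 had 55.4% and 48.3% in vehicle, 28.7% and 36.5% with C29, 40.4% and 37.6% with 5-azadC, and 50.2% and 27.8% with both. Sox10, the neural crest and Schwann cell factor, had 53.4% and 52.9% in vehicle, 54.7% and 40.01% with C29, 34.1% and 45.6% with 5-azadC, and 38.9% and 32.1% with both. Lhx1 and Sox10 were below both vehicle libraries in both 5-azadC libraries, whereas Tbx20 was not. In both C29 libraries Lhx1 and Tbx20 were below both vehicle libraries, whereas Sox10 was not. These start sites were named for their high vehicle mean, a choice that favours lower values in the other libraries.

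Replicates of 1 group often lay far apart. The median gap between the 2 vehicle libraries was 6.70 percentage points over member start sites and 4.12 over member bodies, against 0.836 and 3.63 over all genes. For start sites between 10% and 30% in vehicle the gap had a median of 6.20 points in members and 5.88 in all genes. Between 2% and 10% it was 5.98 points over 7 members and 3.51 over all genes. The vehicle libraries also defined these levels. In the 3 treated groups the median gap at 10% to 30% was 3.47 to 6.16 points in members and 5.02 to 5.74 in all genes. At 2% to 10% it was 4.98 to 6.13 and 1.60 to 1.76 points. By single cytosine, the 2 vehicle libraries differed by 25 points or more at 31.2% of the 4116 member cytosines and at 17.0% of all cytosines. Among cytosines with a vehicle mean between 10% and 90%, those shares were 57.99% and 57.05%. The same 2 libraries define that class, which favours wide vehicle gaps. Over the same member cytosines the replicates differed by that much at 41.3% with C29, 38.9% with 5-azadC and 46.1% with both. Over all cytosines of the class it was 38.9%, 39.7% and 44.2%. Within the Lhx1 stretch printed above, the cytosine at -554 bp from the gene start was at 100% in vehicle replicate 1 and at 0% in replicate 2. The cytosine at -574 bp was at 0% and 86.7%. The number of original molecules behind these reads is not known, and its part in the spread was not tested.

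The first treatment question was whether 5-azadC lowered methylation of these genes. In the logistic likelihood-ratio test of methylKit (calls need a q below 0.01 and pooled reads that differ by 25 percentage points or more), 2 of 54 member start sites (3.70%) were called with 5-azadC against vehicle, where 1.71% of all start-site regions were. Both were lower, at Gata4 and Nkx2-1. Of 58 member bodies 1 was called (1.72%), that of Sox10, where 3.50% of all gene bodies were. The same 2 vehicle libraries serve all 3 comparisons, and the logistic test takes reads as independent. An exact permutation test of 2 libraries against 2 cannot go below p = 0.33.

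Gata4, a zinc-finger factor of heart and endoderm (chr14:63271192-63273692, start-site region), had the lowest values with 5-azadC. It had 56.1% and 66.5% in vehicle and 19.6% and 17.9% with C29. With 5-azadC both libraries were at 0%, and with both drugs they were at 2.78% and 0%. All 6 treated libraries lay below both vehicle libraries. The differences from vehicle in pooled reads were -40.5 points with C29 (q = 1.7e-14), -59.3 with 5-azadC (q = 1.7e-59) and -57.5 with both (q = 4.8e-41), by the logistic test with Benjamini-Hochberg adjustment. The region rests on 3 cytosines within 36 bases, with 16 to 76 reads each and nearly the same reads behind all 3. Pooling thus counts each read up to 3 times in the logistic test. With 25 and 51 reads at each cytosine, the 5-azadC libraries at 0% allow up to 12% and 5.88%. The region had too few cytosines to be tested where at least 5 cytosines or at least 20 reads were required. The cytosines lie at -31, -8 and 4 bp from the gene start. When every annotated transcript start of Gata4 was counted, the differences were -12.9, -12.2 and -5.70 points, and none reached 25.

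Nkx2-1 (chr12:56536408-56538908, start-site region) had lower values with every treatment. It had 50.5% and 70.3% in vehicle, 20.9% and 26.2% with C29, 23.7% and 33.2% with 5-azadC, and 6.08% and 33.5% with both. All treated libraries lay below both vehicle libraries. The pooled differences were -27.6 points with 5-azadC (q = 5.3e-32) and -43.4 with both (q = 3.2e-97), both called by the logistic test. With C29 the difference was -24.6 points, just under the limit of 25 and so not called. Of its 13 cytosines, 8 were called with 5-azadC, 9 with C29 and 10 with both, where 12.8%, 10.3% and 13.2% of all cytosines were. Neighbouring cytosines of the region have nearly the same read counts, so these calls are not independent. Reads per cytosine and library ranged from 10 to 132. Without 5-azadC replicate 1 the difference with 5-azadC was -17.5 points and without vehicle replicate 2 it was -19.8, and neither was called. Without the combination's replicate 1 the difference with both drugs was -21.8 points. With the strands summed the differences were -16.4 points with 5-azadC and -22.7 with both, and neither was called. At a minimum of 20 reads the difference with 5-azadC was -11.5 points. The region overlaps another gene model, Gm26973. The body of Nkx2-1 differed by 13.4 points upward with 5-azadC in the mean over cytosines, which was not called.

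**Figure D4:**
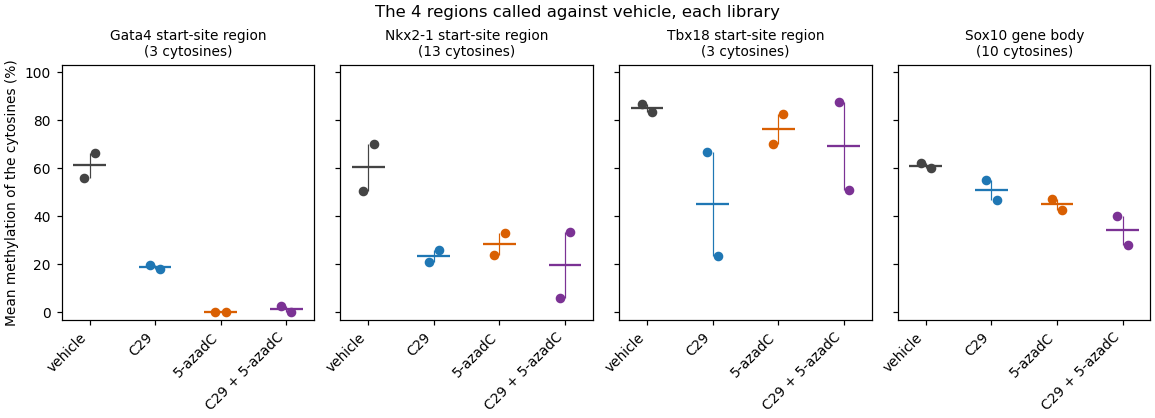
Mean methylation of the cytosines (vertical axis, percent) in each library for the 4 regions called in at least 1 comparison with vehicle: the start sites of Gata4, Nkx2-1 and Tbx18 and the body of Sox10. Points are libraries, horizontal bars group means and vertical lines the range of the 2 libraries. Gata4 falls to 0% in both 5-azadC libraries, whereas the Tbx18 libraries of the C29 group lie at 66.7% and 23.6%.

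The Sox10 body (chr15:79154908-79164739) had 62.2% and 60.0% in vehicle, 55.3% and 47.0% with C29, 47.2% and 42.8% with 5-azadC, and 40.3% and 28.1% with both. All 6 treated libraries were below both vehicle libraries. Only the comparison with 5-azadC was called, at -25.6 points in pooled reads (logistic q = 5.6e-20), and with both drugs the difference was -22.4 points. As a mean over its 10 cytosines the 5-azadC difference was -16.1 points. Without 5-azadC replicate 1 it was -21.2 points and not called. The start site of Sox10 stood -13.5 points from vehicle with 5-azadC and was not called.

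Over all 8 libraries, the 4 with 5-azadC were set against the 4 without. The median difference over member start sites was -0.46 points, with 28 of 54 lower (51.9%), against a median of -0.115 and 56.6% lower over all genes. Over member bodies the median was -1.62 points with 40 of 58 lower (69.0%), against -4.48 and 82.1%. These medians moved with single libraries. Over start sites the median was -2.55 points without C29 replicate 2, -1.64 without 5-azadC replicate 2, -0.0616 without vehicle replicate 1 and -0.207 without vehicle replicate 2. Over bodies it was -2.91 points without C29 replicate 2, -2.45 without the combination's replicate 1 and -0.924 without vehicle replicate 2. The medians of member bodies by library were 32.0%, 33.9%, 31.3% and 28.8% without 5-azadC and 30.8%, 28.8%, 33.2% and 25.9% with it, so the 2 sets of libraries overlapped. All 4 libraries with 5-azadC lay below all 4 without in 1 of 54 start sites, Gata4, against 2.76% of all start-site regions. The same held in 5 of 58 bodies (8.62%), those of Lhx4, Nkx2-2, Pax2, Sox6 and Tbx4, against 15.2% of all bodies. No member region had all 4 above, against 0.522% of start-site regions and 0.209% of bodies of all genes.

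The smaller shift of the bodies was also seen at a like starting level. For bodies between 30% and 50% in vehicle the median difference was -2.31 points over 17 members and -4.35 over 2236 genes. Between 50% and 70% it was -3.56 points over 11 members and -6.38 over 2742 genes. The 2 member bodies above 70%, Nkx6-2 and Lhx8, were both higher with 5-azadC, by 13.2 and 8.09 points. The difference between members and other genes was not tested.

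**Figure D5:**
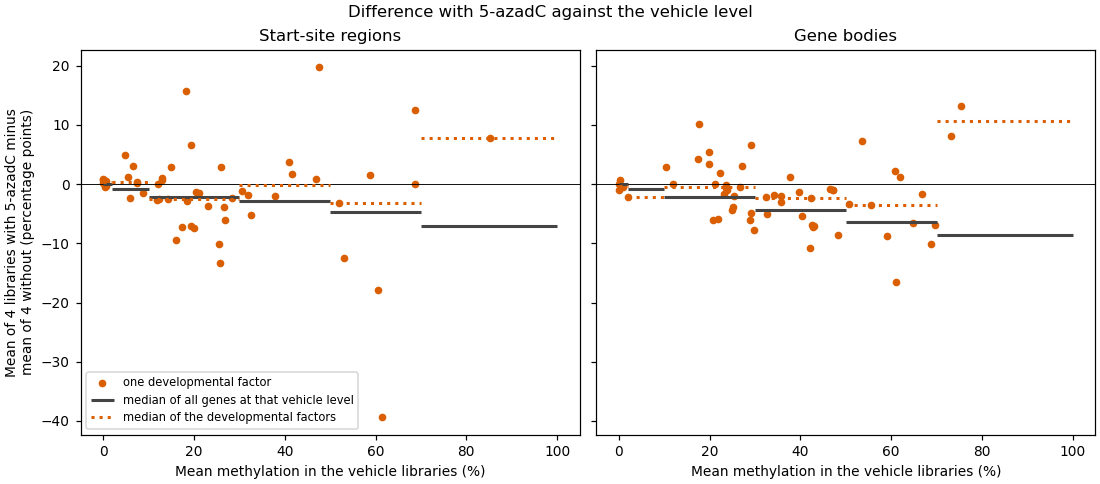
Difference between the mean of the 4 libraries with 5-azadC and the mean of the 4 without (vertical axis, percentage points) against the mean methylation in vehicle (horizontal axis, percent). Orange points are developmental factors, dotted orange lines their medians by vehicle level and black lines the medians of all genes. The lowest point is the start site of Gata4 at -39.4 points.

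The largest differences between libraries with and without 5-azadC are named as a description. Among start sites, Gata4 (-39.4 points) and Nkx2-1 (-17.9) were followed by Tbx15, a limb and muscle factor (-13.4), Sox10 (-12.6), Otx2, a forebrain and eye factor (-10.1), and Tbx3, a factor of the mammary bud and limb (-9.40). Tbx15 had 8.15% and 43.2% in vehicle, 17.5% and 4.76% with C29, 12.4% and 5.21% with 5-azadC, and 0% and 2.47% with both. Vehicle replicate 2 stood apart from the other 7 libraries, which were between 0% and 17.5%. Otx2 had 21.6% and 29.3% in vehicle, 27.5% and 24.1% with C29, 8.01% and 3.39% with 5-azadC, and 10.4% and 40.1% with both. Tbx3 had 17.6% and 14.3% in vehicle, 31.6% and 24.2% with C29, 17.1% and 8.24% with 5-azadC, and 14.3% and 10.7% with both. In Otx2 both libraries with 5-azadC alone lay below the other 6, and only the combination's replicate 2 overlapped the libraries without 5-azadC. In Tbx3 the 4 libraries with 5-azadC overlapped the others.

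The start sites of Tbx4, Nkx2-5 and Nkx6-2 had the largest differences upward with 5-azadC. Tbx4, a hindlimb and lung factor (19.7 points), had 55.1% and 40.01% in vehicle, 22.8% and 59.4% with C29, 74.5% and 73.4% with 5-azadC, and 46.2% and 61.9% with both. Nkx2-5, the heart homeobox factor (15.7 points), had 36.4% and 0% in vehicle, 21.2% and 51.8% with C29, 42.4% and 44.0% with 5-azadC, and 25.8% and 60.1% with both. Nkx6-2 followed at 12.5 points. In Tbx4 the 2 libraries with 5-azadC alone were above all others, and none of these start sites was called.

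Among bodies, Sox10 (-16.5 points) was followed by Nkx2-2, a factor of the ventral spinal cord and the pancreatic islet (-10.8), Sox7, an endothelial factor (-10.04), Six6, an eye and pituitary factor (-8.75), Sox21 (-8.59) and Gsc, a factor of the embryonic organizer (-7.80). The Nkx2-2 body had 41.0% and 43.1% in vehicle, 34.6% and 37.3% with C29, 33.4% and 30.3% with 5-azadC, and 26.1% and 22.9% with both. Its order of vehicle, C29, 5-azadC and the combination was free of overlap between any groups. The Sox7 body had 77.4% and 60.1% in vehicle, 86.6% and 64.2% with C29, 47.7% and 70.3% with 5-azadC, and 71.9% and 58.2% with both, and the groups overlapped. The Six6 body had 51.1% and 67.1% in vehicle, 58.8% and 50.4% with C29, 48.1% and 42.4% with 5-azadC, and 61.2% and 40.8% with both. Six6, too, overlapped between libraries with and without 5-azadC.
The Sox21 body had 47.9% and 48.8% in vehicle, 50.2% and 41.9% with C29, 33.4% and 35.1% with 5-azadC, and 45.3% and 40.7% with both, while its start site was at 1.61% or less in all libraries. The Gsc body had 23.2% and 36.5% in vehicle, 28.1% and 29.8% with C29, 24.5% and 20.3% with 5-azadC, and 19.4% and 22.1% with both. The largest differences upward were those of the Nkx6-2 body (13.2 points), of Six2, a factor of kidney progenitors (10.2), and of Lhx8, a factor of cholinergic neurons and oocytes (8.09). In Six2 the combination's replicate 1 alone was at 51.8%, and the other 7 libraries were between 10.02% and 33.0%.

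The median absolute 5-azadC difference was 2.53 points over member start sites and 3.21 over member bodies. The gene's own mean gap between replicates had medians of 6.15 and 5.35 points. Means of 4 libraries vary less than single libraries, so these medians cannot decide whether 5-azadC had an effect. In the edgeR quasi-likelihood test over all 8 libraries, no member region passed an adjusted p of 0.05 for 5-azadC, and no region of any gene did. At an unadjusted edgeR p under 0.05 stood 1 of 54 member start sites (1.85%), against 3.87% of all genes. It was Gata4, with an edgeR adjusted p of 0.94. Among the bodies it was 7 of 57 (12.3%) against 15.3%, and the lowest adjusted p of a member body was 0.20. Of those 7, Lhx4 (-5.89 points), Tbx15 (-5.44), Sox5 (-6.88), Sox6 (-7.09) and Sox10 (-16.5) were lower with 5-azadC, and Sox11 (7.22) and Irx2 (0.755) were higher. limma on arcsine-square-root means called no member, and 1 start site and 3 bodies of all genes. The overdispersion-corrected F test, 4 libraries against 4, called no member, and 0 start sites and 30 bodies of all genes. At an unadjusted p under 0.05, limma had 3 member start sites (5.56%, all genes 7.17%) and 9 bodies (15.5%, all genes 23.6%). The F test had 3 start sites (5.56%, all genes 8.87%) and 6 bodies (10.3%, all genes 19.1%).

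The second treatment question was the effect of C29. In the logistic test 2 of 54 member start sites were called against vehicle, Gata4 and Tbx18, where 1.43% of all start-site regions were, and both were lower. None of the 58 bodies was called, where 1.63% of all bodies were. The Tbx18 start site (chr9:87730760-87733260) had 86.7% and 83.7% in vehicle, 66.7% and 23.6% with C29, 70.2% and 82.5% with 5-azadC, and 87.7% and 51.2% with both. The difference with C29 was -36.0 points in pooled reads (logistic q = 2.3e-20). Without C29 replicate 2 it was -20.7 points and not called. With the strands summed it was -21.6 points and not called. C29 replicate 2 read lowest of all 8 libraries in 8 member start sites (14.8%, all genes 5.67%) and 9 member bodies (15.5%, all genes 6.19%). 5-azadC replicate 1 did so in 12 start sites (22.2%, all genes 7.92%) and 8 bodies (13.8%, all genes 23.3%).

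Both C29 libraries lay below both vehicle libraries in 13 start sites (24.1%) and above in 3 (5.56%), where 14.1% and 11.0% of all genes did. No library can lie below a vehicle library at 0%. Under 2% in vehicle stood 57.9% of all start-site regions and 14.8% of members, and shares at a like level were not computed. Among bodies they lay below in 20 (34.5%) and above in 4 (6.90%), where 18.1% and 13.1% of all genes did. A vehicle library held the highest value of all 8 in 24 member start sites (44.4%, all genes 28.1%) and 24 member bodies (41.4%, all genes 37.8%), and its part in these counts was not tested. Over all 8 libraries, the median difference with C29 was -1.22 points over member start sites and -0.37 over member bodies, and 0 and 0.106 over all genes. edgeR called no member and no other gene at an adjusted p of 0.05. At an unadjusted p under 0.05 stood 1 member start site, Tbx2, against 3.43% of all start sites, and 8 of 57 bodies (14.0%), against 3.79% of all bodies. Of the 8 bodies, Pax3 (-8.62 points), Nkx2-2 (-6.70), Lhx5 (-6.76), Tbx18 (-10.1) and Gata6 (-9.83) were lower with C29. Irx1 (1.85), Irx3 (3.32) and Six3 (5.42) were higher. The F test and limma called no region of any gene for C29. At an unadjusted p under 0.05 the F test had 6 member bodies (10.3%, all genes 4.43%) and limma 9 (15.5%, all genes 5.49%). The F test had 3 member start sites (5.56%, all genes 7.27%) and limma 1 (1.85%, all genes 5.21%).

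With both drugs, 2 of 54 member start sites were called against vehicle, Gata4 and Nkx2-1, where 1.79% of all start-site regions were. None of the 58 bodies was called, where 3.27% of all bodies were. Both libraries lay below both vehicle libraries in 14 start sites (25.9%, all genes 18.1%) and 19 bodies (32.8%, all genes 39.5%). They lay above in 6 start sites (11.1%, all genes 8.05%) and 3 bodies (5.17%, all genes 4.77%). With 5-azadC alone the libraries lay below in 17 start sites (31.5%, all genes 19.5%) and 25 bodies (43.1%, all genes 47.9%). They lay above in 4 start sites (7.41%, all genes 8.37%) and 2 bodies (3.45%, all genes 3.60%). As with C29, the start-site shares of all genes include many regions near 0% in vehicle. Whether the effect of 5-azadC differed with and without C29 was fitted as an interaction in edgeR, and no member and no other gene passed an adjusted p of 0.05. At an unadjusted p under 0.05 stood 0 member start sites, against 2.60% of all genes, and 3 member bodies, against 4.42%.

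The share of single cytosines called was above that of all cytosines in every comparison with vehicle, as a description. The 2 sets differed in level: between 10% and 90% in vehicle stood 2216 of 4116 member cytosines and 165592 of all 555155. Shares called at a like level were not computed. By the logistic test, 779 of 4116 member cytosines (18.9%) were called with C29, where 10.3% of all cytosines were. With 5-azadC 815 were called (19.8%, all cytosines 12.8%) and with both drugs 894 (21.7%, all cytosines 13.2%). The share of calls that were lower was 68.7%, 70.9% and 65.4% in members, against 55.8%, 76.9% and 71.0% of all calls. No member cytosine of Irx1 or Irx2 was called in any comparison. Of 76 measured cytosines Tbx18 had 30 lower and 5 higher with C29. Of 116, Gata6, an endoderm and heart factor, had 33 lower and 9 higher. These genes had the most lower calls with C29 among members. Neighbouring cytosines share reads, so the counts are a description only. Gata6 had 40 lower and 12 higher with both drugs. The shares of member cytosines called are below the 31.2% at which the 2 vehicle libraries themselves differed by 25 points or more. The same order held over all cytosines, where the vehicle libraries differed by that much at 17.0%. A call also needs a q below 0.01 and compares pooled reads, while the vehicle gap compares single libraries without a test. The order therefore cannot tell whether the calls exceed the spread between replicates, in members or elsewhere. The overdispersion-corrected F test, which weighs the spread between replicates, called no cytosine of any gene. With 2 libraries a group it has few residual degrees of freedom, so the lack of calls cannot decide this either.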

How the data were processed

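RRBS was measured in 8 libraries, 2 for each of 4 groups assigned from the titles. According to the study's methods, Diagenode made and sequenced the libraries and reads were aligned with Bismark 0.20.0 to mm10/GRCm38. The submitters' processing notes also name Trim Galore 0.4.1, FastQC 0.11.8 and methylKit 1.7.0. The sources used here do not state duplicate handling or coverage limits. The values deposited for each CpG cytosine, strand by strand, are the fraction of reads methylated and the count of reads, with no normalization by the authors. Their product was rounded to whole methylated reads. All cytosines used were checked to be C of CpG in GRCm38.

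Cytosines with at least 10 reads in all 8 libraries on autosomes were used, with GENCODE M21 genes. Gene sequences came from RefSeq's GRCm38 assembly. Promoter entries of RefSeq matched 43 of the 59 members and decided which members could be printed. Treatments were compared with vehicle by methylKit's logistic likelihood-ratio test, rewritten with SciPy 1.17.1, pandas 2.3.3 and NumPy 2.4.6 (Python 3.11.15), on reads pooled per region or cytosine. Drug effects over all libraries were fitted on methylated and unmethylated counts by edgeR 4.0.16 (quasi-likelihood) in R 4.3.3, with limma 3.58.1 as an alternative. P-values were adjusted by Benjamini-Hochberg over all genes. edgeR left out regions with no methylated or no unmethylated read in any library. With 4 libraries against 4 an exact permutation test cannot go below p = 0.0286. Scripts were tested on simulated data. Figures used matplotlib 3.10.9.

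The members and lists were chosen with earlier results of these data known. Named with values were members called in any comparison, the 8 most and 4 least methylated start sites in vehicle, and the 6 largest decreases and 3 largest increases with 5-azadC of start sites and bodies. Alternatives changed read and cytosine minimums, region borders, strands, test, replicate block and left-out libraries.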

Additional observations from a re-analysis of the deposited data

Results flagged for a closer look

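For 5 member regions the values moved in opposite directions with 5-azadC in the absence and in the presence of C29, in every library. They were 2 of 54 start sites (3.70%, all genes 3.40%) and 3 of 58 bodies (5.17%, all genes 3.13%). These are the start sites of Pax9, a factor of teeth and pharyngeal pouches, and of Tbx1, a pharyngeal arch factor, and the bodies of Lhx9, a gonad factor, Pax6, an eye and islet factor, and Sox1, a neural factor. The Pax9 start site differed by -8.10 points between 5-azadC and vehicle and by 9.66 between the combination and C29. The Tbx1 start site differed by -12.8 and 6.97 points. The Lhx9 body differed by -7.96 and 6.07 points, the Pax6 body by -8.84 and 11.1, and the Sox1 body by -5.63 and 7.99. In all 5 regions the edgeR interaction test gave an adjusted p of 1.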

How the results depend on the processing

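The count of member start sites called against vehicle was 2 for each of C29, 5-azadC and the combination, and it depended on the processing. In that order it was 0, 1 and 1 where at least 5 cytosines were required, 1, 1 and 1 with the strands summed, 8, 11 and 13 with a minimum difference of 10 points (all genes 9.93%, 11.9% and 11.8%), and 0, 0 and 0 with every transcript start, the overdispersion-corrected F test or edgeR's quasi-likelihood test. It was 1 with C29 in windows of 500 bp, 1 with 5-azadC at 5 reads, and 0 with 5-azadC and 1 with the combination at 20 reads. Leaving out 1 library gave 2 to 6, 1 to 6 and 2 to 5. Called bodies, 0, 1 and 0, became 11, 8 and 9 at 10 points (19.0%, 13.8% and 15.5%, all genes 17.9%, 34.0% and 29.3%) and ranged over 0 to 1, 0 to 2 and 0 to 1 without 1 library. With 5-azadC the Sox10 body was lost, leaving 0, at 5 reads, with strands summed, with the mean over cytosines, the F test and edgeR. With the combination 1 body was called at 20 reads (Irx4) and 1 with every transcript start or the mean over cytosines (Sox10).

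Gata4 was not called with every transcript start, the F test or edgeR, and had too few cytosines for a test at 20 reads or with at least 5 cytosines. Tbx18 had too few with at least 5 cytosines or in windows of 500 bp, and was not called with strands summed (-21.6 points), with every transcript start (-13.6), by the F test or edgeR, or without C29 replicate 2 (-20.7). Nkx2-1 was lost for 5-azadC without 5-azadC replicate 1 (-17.5 points) and without DMSO replicate 2 (-19.8), and for the combination without combination replicate 1 (-21.8). With 5 reads, strands summed and every transcript start the difference with 5-azadC was -19.9, -16.4 and -15.2 and that with both drugs -21.6, -22.7 and -24.4, none of them called. At 20 reads that with 5-azadC was -11.5. Sox10 was lost without 5-azadC replicate 1 (-21.2). No named difference changed sign. The median 5-azadC difference over members ranged from -2.55 to -0.0616 points for start sites and from -2.91 to -0.924 for bodies. The F test, which with 2 libraries a group has few residual degrees of freedom, called 0% of member cytosines in each comparison.

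Start sites with all 4 5-azadC libraries lowest, 1 in the report, numbered 3 at 5 reads, 0 at 20 reads, 0 with at least 5 cytosines, 2 with strands summed, 0 with every transcript start, 2 on pooled reads and 2 to 5 without 1 library, the most without C29 replicate 2. The corresponding bodies, 5 in the report, numbered 3 with strands summed, 2 with every transcript start, 3 on pooled reads and 5 to 9 without 1 library. They numbered 9 without 5-azadC replicate 1 and 8 without combination replicate 1. In the main setting the shares over all genes were 2.76% of start-site regions and 15.2% of bodies. The shares of all genes under the alternatives are not given here. In edgeR's fit over all libraries, where 0 member regions were called, an unadjusted p under 0.05 held for 1 start site with 5-azadC, 1 with C29, 7 bodies with 5-azadC and 8 with C29.

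Deviations of same-numbered replicates correlated at -0.023 to 0.056 between groups. Such correlations cannot exclude a shared batch, and the titles name none, so the samples were treated as unpaired. With the replicate block the called regions numbered 2, 2 and 2 start sites and 0, 1 and 0 bodies, edgeR's calls 0, and called member cytosines 18.4%, 19.3% and 20.8%.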
